A study of Mus musculus with 4 samples.

Results

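The cells described here are the fibroblasts of mouse mammary tumours that carried little RNA of Pi16 and Dpp4, the genes that mark adventitial fibroblasts. They were chosen from measured values. A barcode was a member if Col1a1, Col1a2, Col3a1 and Dcn together made up at least 1% of its UMIs (unique molecular identifiers, each 1 counted RNA molecule), Ptprc had at most 1 UMI, Epcam, Krt8 and Krt18 together had fewer than 3, and Pi16, Dpp4 and Sema3c together had at most 1. This rule found 321 members among 14555 kept barcodes, and they were 321 of the 1074 barcodes that met the collagen, Ptprc and keratin limits. The other 753, with 2 or more UMIs of Pi16, Dpp4 and Sema3c, are called Pi16/Dpp4-high fibroblasts below.

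The tumours grew from H605 cells, a HER2+ mouse mammary tumour line, of which 2000000 were injected into the mammary pad. Hosts were FVB/NJ mice aged 6 to 8 weeks, either WT (2 tumours) or IL1α-/- (2 tumours), the latter lacking interleukin 1 alpha, and all tumours were taken at day 14. All 4 tumours therefore held the same tumour line, and the labels state the deletion for the host only. The suspensions were depleted of dead cells before 10x Genomics 3' v3.1 libraries were made. Tumours were collected as 2 pairs on separate days, and the labels number them 1 and 2 within each host genotype. The number is read here as the pair, which the labels do not state outright. The labels do not name the individual animals, so p-values measure the spread between these tumours only.

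Fibroblasts build the collagen matrix of a tissue. Those around vessels and in fascia express Pi16, Dpp4, Sema3c and Cd34 and are regarded as a reserve population, while in tumours other fibroblasts take on contractile (Acta2, Tagln) or inflammatory (Il6, Cxcl1) programmes. Interleukin 1 alpha is a cytokine released by damaged or activated cells. It acts through the receptor Il1r1 with its partner Il1rap, which fibroblasts express, and activates NF-kB.

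The libraries differed in depth, and this touches every result below. They held 23464120 UMIs (WT replicate 1), 29001333 (WT replicate 2), 6705368 (IL1α-/- replicate 1) and 15298532 (IL1α-/- replicate 2), and between 3213 and 4006 barcodes each were kept. The targeted gene fitted the labels in sums over all kept barcodes. Il1a had 67 and 112 UMIs in the WT libraries and 1 and 0 in the IL1α-/- libraries, a log2 fold change of -5.92 (edgeR quasi-likelihood test, adjusted p = 0.0483). That call was lost when any single library was left out (adjusted p 0.0643 to 0.125) and at a minimum of 1000 UMIs per barcode (adjusted p = 0.0545). The members held no Il1a UMI in any library. Any 2 libraries shared between 0 and 6 kept barcodes.

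There were 94 members in WT replicate 1, 92 in WT replicate 2, 43 in IL1α-/- replicate 1 and 92 in IL1α-/- replicate 2. Their median depth was 1997, 7167, 1511 and 6001 UMIs in the same order. The Pi16/Dpp4-high fibroblasts were deeper in every library, with medians of 7417, 14227.5, 3306 and 8233 UMIs. A shallow cell passes the limit of 1 UMI more easily. At the Pi16, Dpp4 and Sema3c level of the Pi16/Dpp4-high fibroblasts of their own library, 72, 71, 33 and 75 members were deep enough to expect 2 or more UMIs. Of the members 62, 75, 28 and 61 had no UMI of these genes and 32, 17, 15 and 31 had 1. Just outside the limit, 17, 9, 20 and 19 fibroblasts had 2 UMIs. At the collagen limit, 13, 7, 5 and 4 members lay between 1% and 1.5%, and between 2 and 4 otherwise qualifying barcodes per library lay between 0.8% and 1%. In free RNA (barcodes of at most 100 UMIs) the 4 genes of the collagen limit made up 0.321% to 0.486% of UMIs, and the median member held 2.77% to 4.78%.

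The fibroblast label was checked against other markers, since the rule itself set the collagen share. The tumour epithelial markers below include Epcam, Krt8 and Krt18, and the T and NK markers include Ptprc. The rule limited these genes, so the low shares of those markers were partly set by it. Pdgfra, a growth factor receptor of fibroblasts, stood at 586 and 470 CPM (UMI counts scaled to a common library size by TMM, and in unscaled CPM by the plain total) in the WT and 421 and 629 CPM in the IL1α-/- libraries. In unscaled CPM it stood at 417 to 586 in the members, 69.9 to 96.6 over all kept barcodes, 42.5 to 57.2 in free RNA and 1.30 to 9.56 in T cells. The small proteoglycan Lum stood at 1904, 1092, 1559 and 1237 CPM in WT replicates 1 and 2 and IL1α-/- replicates 1 and 2, the order of libraries used for values throughout. Mesothelial, adipocyte, skeletal muscle and red cell markers had no UMI in members of any library. Endothelial markers made up at most 0.0037% of UMIs, tumour epithelial markers at most 0.00362%, T and NK markers at most 0.0135% (0.234% to 0.542% in all kept barcodes), and mononuclear phagocyte markers at most 0.0312% (0.162% to 0.305%). Pericyte and smooth muscle markers made up 0.00245% to 0.0148%.

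The share of members among kept barcodes did not separate the hosts. Members were 2.35% (95% exact binomial interval 1.90 to 2.87) and 2.30% (1.86 to 2.81) in the WT tumours, and 1.34% (0.970 to 1.80) and 2.76% (2.23 to 3.37) in the IL1α-/- tumours. The intervals cover counting error only. The 2 IL1α-/- tumours thus lay on either side of the WT tumours. The means were 2.32% ± 0.0374 and 2.05% ± 1.00 (SD, n = 2 each), and the difference of -0.275 points had a two-sided exact permutation p of 1. It was -1.01 points in pair 1 and 0.462 in pair 2. Of all fibroblasts the members were 27.9% and 44.2% in WT and 15.1% and 37.6% in IL1α-/- hosts. The share was lower in the IL1α-/- tumour of both pairs, with differences of -12.8 and -6.68 points, and higher in pair 2 than in pair 1 for both genotypes. The means were 36.1% ± 11.6 and 26.3% ± 15.8 (SD, n = 2 each, exact permutation p = 0.667), and with 2 tumours against 2 the smallest p is 0.333. Depth moved with this share, since both tumours of pair 2 had the deeper members. After each fibroblast was thinned to 500 UMIs, 73.3%, 92.8%, 60.9% and 88.6% met the Pi16 limit.

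The members were not of one kind. Leiden clustering split them into 6 sub-clusters, which are described by their leading genes without a test, since the clusters were drawn on the same genes. Sub-cluster 1 was the most numerous, with 115 cells at a median of 6445 UMIs. It led in the stress-response factor Atf3 (636 CPM against 46.1 in the other members), the secreted Angptl1 (597 against 54.5), the matrix metalloproteinase Mmp3 (574 against 60.3) and Il6, and Atf3 was detected in 63.5% of its cells. Sub-cluster 4 held 43 cells at a median of 18885 UMIs and led in the contractile genes Tagln (1442 against 110 CPM) and Acta2 (996 against 77.3), in the activin subunit Inhba (280) and in the protease inhibitor Timp1 (4528 against 438). With 6 of 7 myofibroblast markers at 50 CPM or more, and with Tagln and Acta2 leading, it may be called myofibroblast-like. Sub-clusters 5 and 6 also held 6 of 7 at that level, but neither contractile gene was among their leading genes over all libraries. Most UMIs of both genes in sub-cluster 4 came from WT replicate 2, with 1055 for Tagln and 750 for Acta2. It had 48 and 25 in WT replicate 1, 3 and 0 in IL1α-/- replicate 1 and 109 and 64 in IL1α-/- replicate 2. In WT replicate 1 sub-cluster 6 stood above sub-cluster 4, in unscaled CPM, for Tagln (552 against 453) and Acta2 (419 against 236). Arg1, an enzyme also known from macrophages, was among the leading genes of sub-cluster 4, and 5 of its cells held 3 or more UMIs of immune or endothelial markers.

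Sub-cluster 6 held 30 cells and led in the collagen Col7a1 (276 CPM), the growth factor binding protein Igfbp2 (517 against 38.1) and the mitotic genes Kif15, Kif23 and Aspm. Its top gene by fold, the pericyte gene Rgs5, was found in 3.33% of its cells. Other pericyte markers were also higher in it. Cspg4 stood at 131 against 15.7 CPM, in 36.7% of its cells, and Mcam at 82.7 against 5.23 CPM, in 10%. The pericyte and smooth muscle markers made up 0.0655% of its UMIs against 0.00601% in the other members. With 3 of 8 of them at 50 CPM or more, no pericyte name is given. Sub-cluster 2 held 51 shallow cells, with a median of 872 UMIs, and led in Smpd3 (1002 against 11 CPM), Mrgprg, Efhd1 and Ifi27l2a. Its 7 adventitial markers made up 0.449% of UMIs against 0.0898% in the other members, although its cells had passed the Pi16 limit. In sub-cluster 3, with 43 cells, the single transcript Gm42418, a locus that overlaps ribosomal RNA, took 24.7% of UMIs. Sub-cluster 5 held 39 cells at a median of 992 UMIs, and its leading genes rested on few cells. Sub-clusters 2, 3, 5 and 6 stay unnamed. Numbers of cells per library are shown without a comparison, because genes that define the sub-clusters also differed between hosts.

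**Figure D1:**
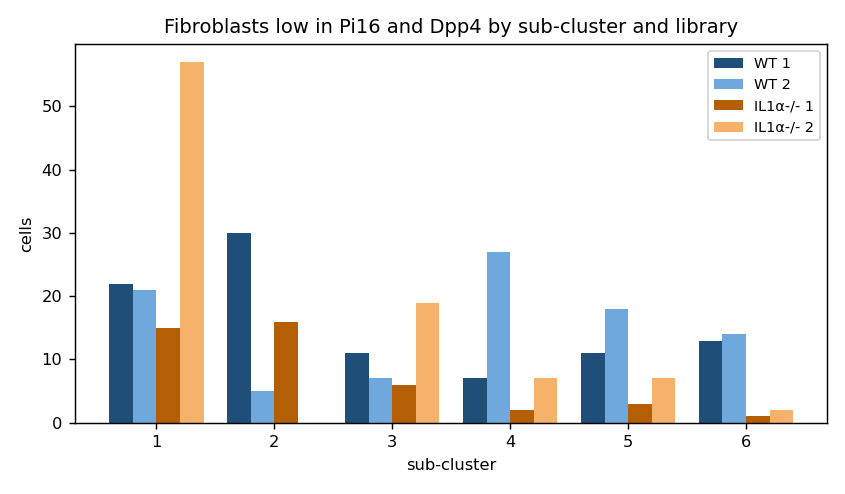
Number of members (vertical axis, cells) in each of the 6 sub-clusters (horizontal axis), 1 bar per library, blue for WT and orange for IL1α-/- hosts. Sub-cluster 1 held 22 and 21 WT cells and 15 and 57 IL1α-/- cells, sub-cluster 4 held 7, 27, 2 and 7 cells, sub-cluster 6 held 13, 14, 1 and 2, and sub-cluster 2 had no cell of IL1α-/- replicate 2.

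Set beside the Pi16/Dpp4-high fibroblasts of the same library, the members carried more of the contractile genes and less of the adventitial ones. These levels are a description, because the rule split the cells. CPM here, and in the later comparison of host effects with these fibroblasts, were scaled by TMM over both sums of cells together. They therefore differ from the CPM scaled over the members alone that are given elsewhere. Among 3050 genes at 50 CPM or more in either sum, 374 (12.3%) were higher in the members in all 4 libraries and 654 (21.4%) were lower. Past 2-fold on the mean as well, 61 (2%) were higher and 140 (4.59%) lower. Acta2, smooth muscle actin, stood at 151, 822, 64.2 and 126 CPM in the members and at 7.12, 79.2, 1.28 and 2.59 CPM in the Pi16/Dpp4-high fibroblasts. The actin-binding Tagln followed with 250, 1174, 42.8 and 197 CPM against 20.8, 108, 1.28 and 19.8 CPM. Every library showed both genes higher in the members, but in IL1α-/- replicate 1 on few UMIs. There, Acta2 had 4 UMIs in 1 cell of sub-cluster 2 and 2 in 1 cell of sub-cluster 3. Tagln had 3 UMIs in 1 cell of sub-cluster 4 and 1 in 1 cell of sub-cluster 3. Spp1, the secreted matrix protein osteopontin, had the highest ratio, a mean log2 ratio of 4.46 on CPM with 5 added. The next were the interferon-induced chemokine Cxcl9 (on average 682 against 97.5 CPM), the matrix glycoprotein Tnc (506 against 57.1 CPM), Inhba (3.07), the adhesion molecule Ncam1 (2.72), the tropomyosin Tpm2 (2.63), the protease inhibitor Serpina3g (2.46) and Ltbp2 (2.22), which belongs to the latent TGF-beta binding proteins. In unscaled CPM, Cxcl9 stood at 139 and 1296 in WT members and 735 in members of IL1α-/- replicate 1. In the free RNA of these libraries it stood at 45.1, 484 and 644, and the part of free RNA was not tested. The Spp1 ratio rested on few cells in the IL1α-/- libraries. The Spp1 UMIs of the members were 5 in 1 cell in replicate 1 and mostly in 3 cells of sub-cluster 5 (85 UMIs) in replicate 2.

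At the other end stood the sphingomyelinase Smpd3 (mean log2 ratio -3.48), the receptor Mrgprg (-3.11), the pentraxin Ptx3 (-2.54), Arhgap20 (-2.48), the angiopoietin receptor Tek (-2.30), the protease Pcsk6 (-2.29), Tmem100 (-2.26), the angiotensin receptor Agtr2 (-2.18), the chemokine scavenger Ackr3 (-2.18) and Lbp (-2.15). Of the adventitial genes outside the rule, 14 of 16 were lower in the members in all 4 libraries, with a median log2 ratio of -1.46, against -0.07 for all 8881 genes. Cd34, a surface protein of adventitial cells, stood at 413, 239, 941 and 892 CPM in the members and 1379, 794, 1615 and 1762 CPM in the Pi16/Dpp4-high cells. Of the contractile and myofibroblast genes, 10 of 15 were higher in all 4 libraries (median 1.24). Postn, periostin, showed no such order, with log2 ratios of 1.32, 0.13, 0.23 and -0.05. The interleukin 1 receptor Il1r1 did not either, with 204, 125, 74.9 and 148 CPM against 106, 155, 106 and 95.6 CPM.

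**Figure D2:**
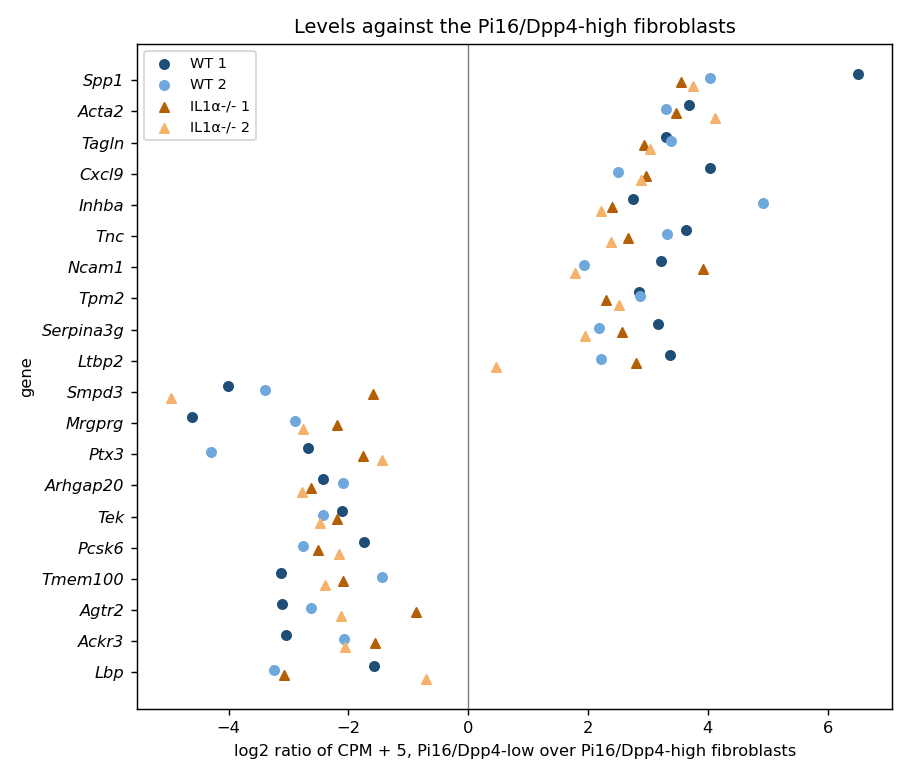
Log2 ratio of CPM + 5 (horizontal axis) between members and Pi16/Dpp4-high fibroblasts of the same library for the 10 genes with the highest and the 10 with the lowest mean ratio among those of 1 direction in all 4 libraries (vertical axis). Points are libraries. Spp1 reached 6.51 in WT replicate 1 and 3.55 to 4.04 in the others, and Smpd3 lay between -4.95 and -1.59. In the IL1α-/- libraries the Spp1 ratios rest on few cells.

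Between hosts, Spp1 was the gene that passed the test, out of 6016 tested. Its level was 5849 and 3593 CPM in the members of the WT tumours and 61.9 and 159 CPM in those of the IL1α-/- tumours, 4721 ± 1596 against 110 ± 68.6 CPM (SD, n = 2 each). The groups lay far apart, and Spp1 fell by 5.27 on the log2 scale (SE 0.52, adjusted p = 0.0439). It lies on chromosome 5 (mm10, 104435118 to 104441050, plus strand). With the pair as a block the value was -5.16 (adjusted p = 4.07e-07). The signal came from part of the cells. In WT replicate 1, 27 of 94 members held its 1935 UMIs and the richest cell 350, and in WT replicate 2, 36 of 92 held 3419 with 903 in the richest. In the IL1α-/- libraries 1 of 43 members held 5 UMIs and 7 of 92 held 92, of which 83 were in 1 cell.

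Spp1 was concentrated in sub-clusters 4, 5 and 6. In unscaled CPM, sub-cluster 4 held 12479 and 5081 CPM in the WT libraries and 804 and 9.17 CPM in the IL1α-/- libraries. Sub-cluster 6 held 9250 and 2788 CPM in WT and 0 and 621 in IL1α-/-, in which it had 1 and 2 cells. Sub-cluster 5 held 7634 and 472 CPM in WT and 0 and 8747 CPM in IL1α-/- libraries. In WT replicate 1 it was found in 9 of its 11 cells, while the value in IL1α-/- replicate 2 rested on 85 UMIs in 3 of 7 cells, 83 of them in 1 cell. The 115 cells of sub-cluster 1 stood at 0 to 7.29 CPM in every library. Without sub-cluster 4 the call ended (log2 fold change -3.86, adjusted p = 0.520), as it did when no UMI of Pi16, Dpp4 and Sema3c was allowed (-4.88, adjusted p = 0.147) and when the limit was set after thinning (-5.22, adjusted p = 0.443). In summed cells, fewer cells of a type and less RNA per cell cannot be told apart. Spp1 also differed outside these cells: over all kept barcodes it stood at 1337 and 1466 CPM in WT and 106 and 153 CPM in IL1α-/- libraries, and in free RNA at 860, 851, 188 and 231 CPM. Members of the WT libraries lay above the free RNA of their library and those of the IL1α-/- libraries below it. The part of free RNA in the difference was not tested.

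Other genes did not pass. Of the 6016 genes, 1 (0.0166%) passed the adjusted threshold, 561 (9.33%) had an unadjusted p under 0.05, and for 42.2% the 2 WT and 2 IL1α-/- values did not overlap. With the pair as a block, which leaves 1 residual degree of freedom in place of 2, the count was 254 (4.22%), of which 163 (2.71%) were higher and 91 (1.51%) lower in IL1α-/- hosts, and Spp1 was among them. The 24 genes named by smallest p, 12 in each direction, were all called with the block (adjusted p 4.07e-07 to 0.0123). They were picked from the same sums of counts, so these calls are no separate evidence. In the fit without the block, the 23 other than Spp1 had adjusted p of 0.0778 to 0.201, and none of their groups overlapped.

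**Figure D3:**
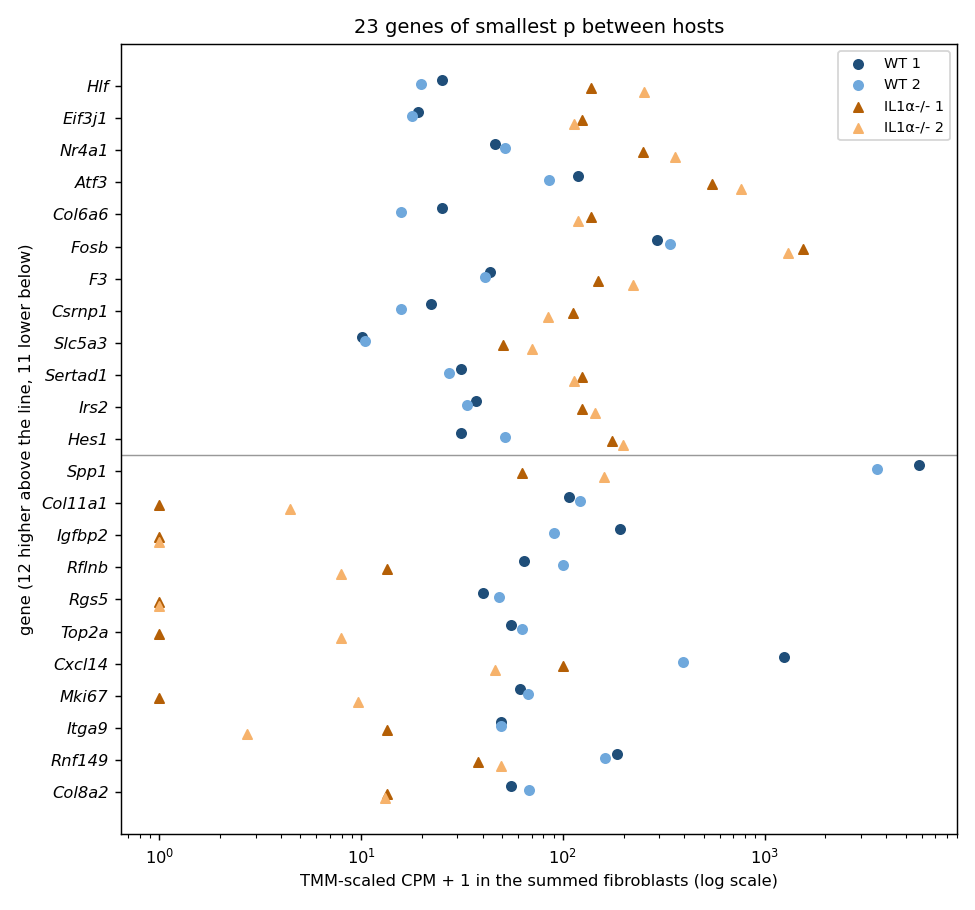
TMM-scaled CPM + 1 in the summed members (horizontal log axis) of 12 higher and 11 lower genes among those of smallest p (vertical axis), 1 point per library, blue circles for WT and orange triangles for IL1α-/- hosts. The groups are apart for each gene; Spp1 lies at 5849 and 3593 against 61.9 and 159 CPM, and Atf3 at 118 and 84.1 against 545 and 764 CPM.

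The fibrillar collagen Col11a1 stood at 106 and 121 CPM in WT and 0 and 3.46 CPM in IL1α-/- libraries (log2 fold change -5.14, SE 0.60, adjusted p = 0.0778). In WT replicate 1 it did not stand out in the members, with 97.5 unscaled CPM against 158 over all kept barcodes and 102 in free RNA. In WT replicate 2 these values were 115, 58.1 and 35.8. The part of free RNA was not tested. Igfbp2 had 63 and 85 UMIs in WT members and none in IL1α-/- members, which puts it at least 25.6-fold lower against a floor of 3 UMIs over both libraries. The chemokine Cxcl14 stood at 1242 and 391 against 99.0 and 44.9 CPM (-3.70, SE 0.69, adjusted p = 0.162). The groups were apart for each of these, which were picked by smallest p, and also for 42.2% of all genes. The UMIs of Col11a1 and Igfbp2 came mostly from sub-cluster 6 in WT replicate 1 and from sub-clusters 4 and 6 in WT replicate 2. Rgs5 must be read with care, because its 13 and 45 WT UMIs each came from a single cell.

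The proliferation genes Mki67 and Top2a were among the lower genes too. Mki67 stood at 60.5 and 66.2 CPM in WT and 0 and 8.64 CPM in IL1α-/- libraries (-3.07, SE 0.57, adjusted p = 0.162), and its WT UMIs came from 4 and 10 cells. Top2a stood at 54.4 and 62.0 against 0 and 6.91 CPM. Of the 7 cell cycle genes tested, 3 were lower and 1 higher at an unadjusted p under 0.05 (9.33% of all genes in either direction), the higher being the cell cycle inhibitor Cdkn1a (57.4, 64.1, 61.9 and 280 CPM), which rested on IL1α-/- replicate 2. The remaining lower genes were the actin regulator Rflnb, the integrin Itga9, the ubiquitin ligase Rnf149 (184 and 161 against 37.1 and 48.4 CPM) and the collagen Col8a2 (54.4 and 67.3 against 12.4 and 12.1 CPM), with log2 fold changes of -3.40, -3.83, -1.91 and -2.33. In unscaled CPM, Rflnb stood at 58.5 in the members and 103 in the free RNA of WT replicate 1, and at 94.3 and 41.4 in WT replicate 2. For IL1α-/- replicate 1, 3 UMIs correspond to 36.8 CPM, so its values near or below that level are not distinguishable from one another.

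Most contractile genes had a lower mean in the IL1α-/- hosts, and values differed between the pairs. Of 15 tested, 14 had a lower mean and 7 an unadjusted p under 0.05 (3.51% of all genes were lower in this sense), with a median log2 fold change of -1.01 against -0.02 for all genes. None passed the adjusted threshold, and with the block 7 were called lower and 1 higher (1.51% and 2.71% of all genes). Tagln stood at 260 and 1200 CPM in WT and 49.5 and 202 CPM in IL1α-/- libraries (-2.36, SE 0.78, adjusted p = 0.403, with the block 4.25e-04). Acta2 stood at 157 and 841 against 74.3 and 130 CPM (-2.20, SE 0.74, adjusted p = 0.417, with the block 0.0037). For both genes pair 2 lay above pair 1 in each genotype, and the IL1α-/- tumour was the lower of each pair. The actin-binding Cald1 (756 and 1220 against 309 and 524 CPM) and the tropomyosin Tpm1 (342 and 627 against 235 and 259 CPM) had the same order. The collagen receptor subunit Itga11 went the other way (45.3 and 25.2 against 99.0 and 88.1 CPM, log2 fold change 1.47). Pericyte and smooth muscle markers moved with this list, at 0.0117% and 0.0148% of UMIs in WT and 0.00245% and 0.00306% in IL1α-/- members, and their part was not tested. The median was -0.58 without sub-cluster 4, -0.32 without WT replicate 2 and -0.14 in sub-cluster 1 alone.

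Immediate early genes, which cells switch on within minutes of a stimulus, formed the opposite group. Of the 19 genes in this list, all tested, 15 were higher and 1 lower at an unadjusted p under 0.05 (5.82% and 3.51% of all genes), and the median log2 fold change was 1.34. None passed the adjusted threshold, while 14 were called higher and 1 lower with the block (2.71% and 1.51% of all genes). Atf3 stood at 118 and 84.1 CPM in WT and 545 and 764 CPM in IL1α-/- libraries (2.72, SE 0.39, adjusted p = 0.110). Fosb, a subunit of the AP-1 factor, stood at 290 and 338 against 1547 and 1303 CPM (2.17, SE 0.33, adjusted p = 0.120). Nr4a1, an orphan nuclear receptor, stood at 45.3 and 50.4 against 248 and 358 CPM (2.68, SE 0.37, adjusted p = 0.110). The groups were apart for these 3, which were picked by smallest p, and also for 42.2% of all genes. Many cells contributed: Atf3 was found in 11 and 13 WT members and in 17 and 55 IL1α-/- members.

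Fos (1091 and 565 against 2970 and 2887 CPM), Egr1 (1412 and 433 against 3057 and 3361 CPM), Junb (919 and 311 against 1225 and 1863 CPM) and the phosphatase Dusp1 (414 and 266 against 1139 and 1256 CPM) followed the same order. Their log2 fold changes were 1.83, 1.81, 1.34 and 1.82, with adjusted p of 0.201, 0.338, 0.479 and 0.199. The heat shock genes in the list did not: Hspa1b stood at 145 and 68.3 against 74.3 and 15.6 CPM and Hspa1a at 157 and 45.2 against 37.1 and 39.7 CPM. These near-identical copies can share reads and are uncertain singly. The median of the list was 0.94 without sub-cluster 4 and 0.78 in sub-cluster 1 alone, which led in Atf3 and Fos.

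The summed level of the list, in unscaled CPM, was 7705 and 4367 in WT members and 17231 and 17306 in IL1α-/- members. In the Pi16/Dpp4-high fibroblasts it was 12687 and 9976 against 18741 and 20324, with a median log2 fold change of 0.62. T cells of the same libraries stood at 6697 and 4190 against 5520 and 6304, where the groups overlapped, and all kept barcodes at 7241 and 5181 against 8224 and 8878. In free RNA the sum was 5885 and 4281 against 7739 and 10938. Fosb by itself was higher without overlap in T cells too, at 140 and 91.5 against 268 and 229 CPM. The part of free RNA was not tested. These genes also respond to tissue digestion, which all 4 tumours underwent, and its part in the difference was not tested.

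**Figure D4:**
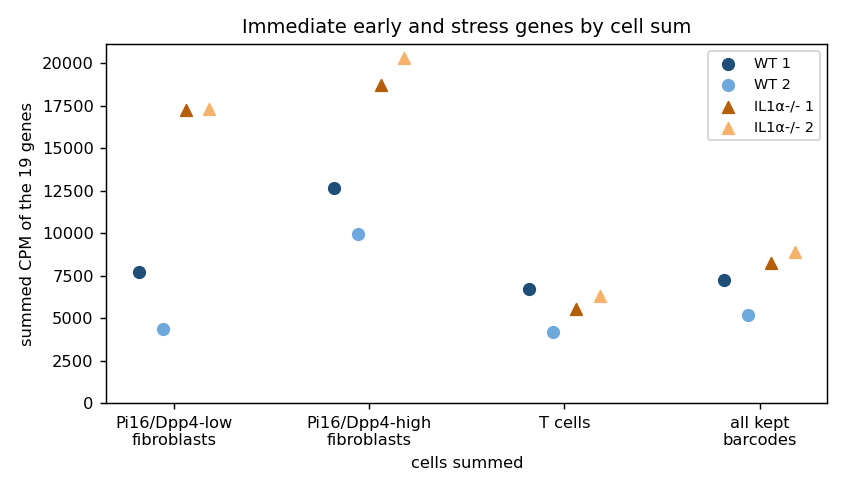
Summed CPM (vertical axis, unscaled, from 0) of the 19 immediate early and stress genes in 4 sums of cells (horizontal axis), 1 point per library. The IL1α-/- libraries lie at 17231 and 17306 CPM against 7705 and 4367 in the members, and overlap with WT in T cells.

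The promoters of the 3 immediate early genes of smallest p are shown because these genes were high together. Each is the 250 bases before the RefSeq start site (GRCm38.p6, the assembly also called mm10), with capitals marking TGACG, the core of the cAMP response element that ATF and CREB factors bind, read on either strand. The Atf3 window is chr1:191183334-191183583 (minus strand), that of Fosb chr7:19310046-19310295 (minus strand) and that of Nr4a1 chr15:101266596-101266845 (plus strand). The Atf3 and Nr4a1 windows lie within a longer transcript of the same gene in GENCODE vM21.
Atf3: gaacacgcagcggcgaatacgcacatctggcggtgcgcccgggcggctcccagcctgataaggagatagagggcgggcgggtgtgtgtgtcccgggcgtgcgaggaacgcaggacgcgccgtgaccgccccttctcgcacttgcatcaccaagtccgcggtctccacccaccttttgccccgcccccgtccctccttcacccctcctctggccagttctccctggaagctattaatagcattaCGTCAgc
Fosb: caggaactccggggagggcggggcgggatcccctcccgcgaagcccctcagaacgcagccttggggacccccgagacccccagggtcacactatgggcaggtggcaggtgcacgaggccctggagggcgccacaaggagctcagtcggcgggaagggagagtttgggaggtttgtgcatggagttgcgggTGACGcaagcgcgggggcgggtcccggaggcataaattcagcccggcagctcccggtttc
Nr4a1: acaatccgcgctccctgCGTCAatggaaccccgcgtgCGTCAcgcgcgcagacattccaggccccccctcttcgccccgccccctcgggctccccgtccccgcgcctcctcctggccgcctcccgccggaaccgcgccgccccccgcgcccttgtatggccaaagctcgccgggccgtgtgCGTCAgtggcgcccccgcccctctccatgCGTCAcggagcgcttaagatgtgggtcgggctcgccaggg
Nr4a1 held 4 matches and the others 1 each. Of 32851 mouse promoter windows of this length 17.8% held TGACG, and of 16 genes of the list with an entry 9 did. The AP-1 motif TGANTCA was in 6.75% of all windows and in none of these genes, and the CArG box, bound by serum response factor, in 1.47% and in 1 gene. A match is a string of letters, not a bound site.

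The other higher genes of smallest p included the clock-related factor Hlf (24.2 and 18.9 against 136 and 252 CPM, log2 fold change 3.30), the collagen Col6a6 (24.2 and 14.7 against 136 and 117 CPM, 2.76), tissue factor F3 (42.3 and 39.9 against 149 and 223 CPM, 2.24), the inositol transporter Slc5a3 (2.74), Csrnp1 (2.41), the Notch target Hes1 (2.16), Sertad1 (2.05) and the insulin receptor substrate Irs2 (2.00). Their adjusted p ran from 0.110 to 0.162. Eif3j1, a translation initiation subunit, stood at 18.1 and 16.8 against 124 and 112 CPM, but it has a near-identical copy, Eif3j2, with which it can share reads. Over all kept barcodes Eif3j1 stood at 20.9 and 22.3 against 155 and 140 CPM and Eif3j2 at 49.8 and 43.7 against 5.97 and 5.03 CPM, in opposite directions, and this pair is uncertain.

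The adventitial genes that the rule did not use had higher means in the members of IL1α-/- hosts. All 12 tested had a higher mean and 6 an unadjusted p under 0.05 (5.82% of all genes), with a median log2 fold change of 1.12. None passed the adjusted threshold, and 6 were called higher with the block (2.71% of all genes). Cd34 stood at 429 and 244 CPM in WT and 1089 and 914 CPM in IL1α-/- libraries (1.58, SE 0.39, adjusted p = 0.233, with the block 0.00395). The transcription factor Creb5 stood at 60.5 and 32.6 against 248 and 117 CPM, the adhesion protein Opcml at 69.5 and 38.9 against 248 and 130 CPM, and the complement regulator Cd55 at 93.7 and 44.1 against 235 and 161 CPM. Both IL1α-/- values lay above both WT values for each, as they did for 21% of all genes. The rule genes themselves, given without a test, stood at 54.4, 8.41, 86.6 and 25.9 CPM for Pi16 and 24.2, 8.41, 86.6 and 20.7 CPM for Sema3c. The median was 0.56 when the limit was set after thinning, 0.58 without sub-cluster 4 and 0.26 in sub-cluster 1 alone. In the Pi16/Dpp4-high fibroblasts it was 0.37 over 16 genes. The shallow sub-cluster 2, richer in adventitial markers, supplied 28122 of 358849 and 5623 of 996345 member UMIs in the WT libraries. It supplied 24146 of 81599 in IL1α-/- replicate 1 and none in IL1α-/- replicate 2. Its part in the difference was not tested.

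The NF-kB response genes had no lower means in hosts without interleukin 1 alpha, with 1 exception. Of 16 tested, 15 had a higher mean, 8 were higher and 1 lower at an unadjusted p under 0.05 (5.82% and 3.51% of all genes), and the median was 0.84. None passed the adjusted threshold, and with the block 3 were called higher (2.71% of all genes). The median ran from 0.39 to 1.05 over the alternatives. The hyaluronan-binding Tnfaip6 stood at 278 and 102 CPM in WT and 879 and 898 CPM in IL1α-/- libraries (2.25, SE 0.50, adjusted p = 0.201, with the block 7.61e-04). The adhesion molecule Icam1 stood at 90.7 and 31.5 against 161 and 204 CPM, Ier3 at 118 and 143 against 186 and 432 CPM, and the interferon regulator Irf1 at 127 and 68.3 against 186 and 235 CPM. The lower member was the mitochondrial dismutase Sod2 (log2 fold change -1.31).

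Cytokines went both ways, with 3 of 18 higher and 3 lower at an unadjusted p under 0.05 (5.82% and 3.51% of all genes) and a median of 0.04, and none past the adjusted threshold. Il6 was high in 1 tumour, at 39.3, 5.25, 24.8 and 185 CPM, and its groups overlapped. The neutrophil chemokine Cxcl1 stood at 78.6 and 35.7 against 136 and 199 CPM (1.69, adjusted p = 0.302, but -0.16 when the Pi16 limit was set after thinning), the monocyte chemokine Ccl7 at 665 and 474 against 61.9 and 289 CPM (-1.54, adjusted p = 0.470). Cxcl12 differed more between pairs than between hosts, at 565, 86.2, 1423 and 226 CPM.

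The interleukin 1 family was thinly covered in the members. The receptor Il1r1 stood at 212 and 128 CPM in WT and 86.6 and 152 CPM in IL1α-/- libraries (-0.38, SE 0.42, adjusted p = 0.801), with overlapping groups. Its partner Il1rap had 8, 17, 2 and 6 UMIs. The antagonist Il1rn had 5, 0, 1 and 3 UMIs and the second ligand Il1b 0, 0, 4 and 0, too few to test. Il33, the alarmin of the family that fibroblasts store in the nucleus, stood at 206 and 187 against 49.5 and 62.2 CPM (-1.74, SE 0.37, adjusted p = 0.201, with the block 0.0120), with 68, 178, 4 and 36 UMIs. Its groups lay apart, as did those of 42.2% of all genes. It was the 1 gene of 8 tested in the family with an unadjusted p under 0.05, a share near the 9.33% of all genes.

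Most of the matrix genes showed no common direction. Of 15 collagens outside the rule, 4 were lower and 1 higher at an unadjusted p under 0.05 (3.51% and 5.82% of all genes, median -0.21). Without the block none passed the adjusted threshold, and with it 4 were called lower (1.51% of all genes). Col12a1, which links fibrils, stood at 961 and 1751 against 161 and 688 CPM, Col8a1 at 296 and 1001 against 74.3 and 185 CPM, and Col15a1 at 589 and 825 against 248 and 423 CPM. The 27 matrix glycoproteins and proteoglycans had a median of 0.02. Among them Bgn was lower (3204 and 3309 against 1176 and 2182 CPM), Ogn and Tnxb were higher (665 and 844 against 1398 and 1396 CPM; 263 and 104 against 532 and 394 CPM), each with an adjusted p of 0.454 to 0.475. The abundant Sparc (9335, 18271, 5086 and 13598 CPM), Fn1 (6049, 4219, 9121 and 5213) and Postn (4389, 5002, 4232 and 6345) overlapped between hosts. Of the 25 matrix enzymes and inhibitors tested, Timp1 was lower in both pairs, at 2515 and 3293 against 86.6 and 648 CPM (-2.88, SE 0.71, adjusted p = 0.233, with the block 1.84e-04), and so was the gelatinase Mmp9 (42.3 and 52.5 against 0 and 10.4 CPM). Most WT Timp1 UMIs came from sub-cluster 4, with 668 from 7 cells and 2924 from 27 cells. Its 2 and 7 cells in the IL1α-/- libraries held 1 and 222. Sub-cluster 4 supplied 621177 of the 996345 member UMIs of WT replicate 2 and 109055 of 621568 in IL1α-/- replicate 2. The part of these deep cells in the difference was not tested.

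**Figure D5:**
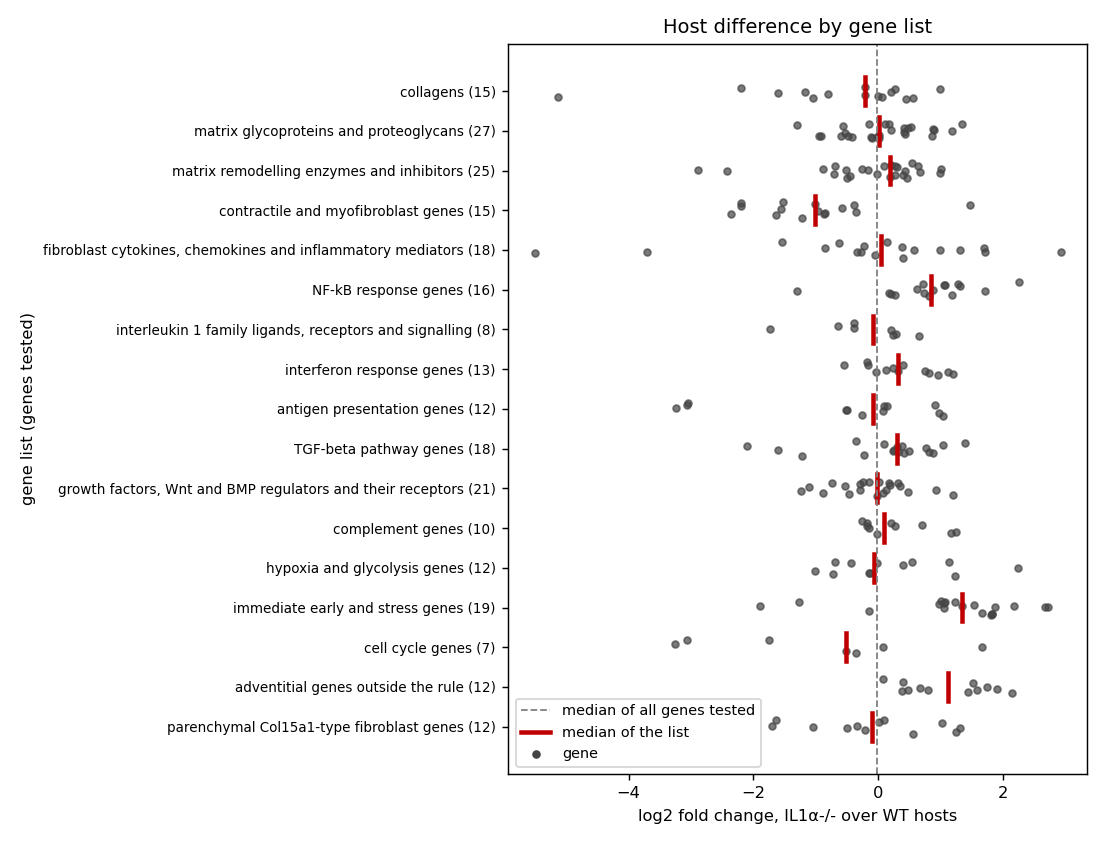
Log2 fold change between hosts (horizontal axis, IL1α-/- over WT) of each tested gene (grey points, jittered vertically) in the 17 lists, with the median of each list (red bar) and of all 6016 genes (dashed line, -0.02). The immediate early list has its median at 1.34, the adventitial list at 1.12, the NF-kB list at 0.84 and the contractile list at -1.01.

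In the TGF-beta pathway, Ltbp2 was lower (215 and 214 against 86.6 and 36.3 CPM, -2.10, adjusted p = 0.201) and Ltbp4 higher (90.7 and 80.9 against 223 and 225 CPM, 1.39, adjusted p = 0.233). The ligands Tgfb1 (87.7 and 84.1 against 24.8 and 39.7 CPM) and Tgfb3 (69.5 and 96.7 against 0 and 34.6 CPM) lay lower in both pairs, and the 18 genes of the list had a median of 0.31. Of the complement genes C3 stood at 2074 and 1740 against 5928 and 3119 CPM (1.24, adjusted p = 0.360), and 5 of the 10 had a higher and 5 a lower mean (median 0.09). The antigen presentation genes H2-D1 (1004 and 1008 against 2376 and 1598 CPM), H2-K1 (843 and 1000 against 2401 and 1406 CPM) and B2m (1242 and 1037 against 2574 and 1709 CPM) had log2 fold changes of 0.98, 1.04 and 0.90, and H2-D1 and H2-K1 are close relatives that can share reads. Their list was split, with 6 of 12 genes higher and 6 lower (median -0.09), and 3 higher and 2 lower at an unadjusted p under 0.05 (5.82% and 3.51% of all genes). In unscaled CPM, H2-D1, H2-K1 and B2m stood at 2353, 2377 and 2549 in the members of IL1α-/- replicate 1. In its free RNA they stood at 2517, 2468 and 2421, and the part of free RNA was not tested. The class II genes, which antigen-presenting immune cells express, were at the lower end: Cd74 stood at 317, 25.2, 49.5 and 12.1 CPM and H2-Ab1 at 139, 17.9, 24.8 and 5.18 CPM, highest in WT replicate 1. Phagocyte markers were also highest there (0.0312% of UMIs, against 0.00422%, 0.0098% and 0.00193%), and their part was not tested. None passed the adjusted threshold. The growth factor, hypoxia, interferon and Col15a1-type fibroblast lists had medians between -0.10 and 0.32, whose sign changed over the alternatives (hypoxia -1.56 to 0.97, Col15a1-type -0.54 to 0.98, growth factors -0.57 to 0.15, interferon -0.20 to 0.81).

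Whether the host differences were particular to the members was tested against the Pi16/Dpp4-high fibroblasts of the same tumours in 1 fit. On simulated counts, with the same set spread between libraries for every gene, this fit called 0 of 50 differences of 2-fold, 6 of 50 of 4-fold and 24 of 50 of 8-fold. It can therefore miss such differences, and a lack of calls does not show that host effects were shared. Of 8881 genes none passed, while 366 (4.12%) had an unadjusted p under 0.05. The count was 16 without the filter on low counts and 17 and 19 when WT replicate 2 or 1 was left out. The host effect on Spp1 differed between the cell types by -0.51 on the log2 scale (edgeR, SE 1.16, adjusted p = 1.00). That on Atf3 differed by 1.10 (edgeR, SE 0.35, adjusted p = 1.00). In a fit of their own the Pi16/Dpp4-high fibroblasts had 0 calls among 9136 genes, with 485 (5.31%) at an unadjusted p under 0.05. The 5 genes of smallest p with a larger effect in the members were the protease inhibitor Slpi, the vasoconstrictor peptide Edn1, Il6, Ndrg1 and Fam129a. Edn1 stood at 11.6, 4.11, 171 and 52.3 CPM in the members and 77.7, 10.6, 53.7 and 38.8 CPM in the others (difference 3.11, SE 0.62, adjusted p = 0.708), but 14 of its 16 UMIs in IL1α-/- replicate 1 came from 1 cell.

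In the other direction stood F830016B08Rik, the lipase Mgll, H2-Aa, the chromatin protein Hmgb2 and the protease inhibitor Serpine2. Serpine2 stood at 518, 339, 0 and 72.5 CPM in the members and 157, 110, 88.3 and 76.7 CPM in the Pi16/Dpp4-high fibroblasts (difference -2.31, SE 0.56, adjusted p = 0.708). Hmgb2 stood at 119, 153, 32.1 and 42.1 CPM against 55.2, 39.0, 46.1 and 48.3 CPM (difference -1.84, SE 0.45). For both, the WT members lay above the other 3 sums of cells.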

How the data were processed

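Members were chosen, and gene lists and tests set, with earlier results of these data known. The deposited tables hold raw UMI counts per gene and barcode, made by the authors with Cell Ranger 3.1.0 on mm10, per the submitters' processing notes. They list mouse and human features; mouse features were analysed. Barcodes with at least 500 UMIs, 250 genes and at most 20% mitochondrial UMIs were kept. Doublets were left in and removed by Scrublet score as an alternative. Counts were summed per library over members and tested with edgeR 4.0.16 (quasi-likelihood, filterByExpr, TMM, Benjamini-Hochberg at 0.05), first without a block. Over 6016 genes, replicate 1 minus replicate 2 correlated at 0.253 between genotypes, and the pair was then used as a block. Shares were compared by exact permutation. Members were clustered with scanpy 1.11.5 (1500 genes, 20 components, 15 neighbours, resolution 0.5). The fits were tested on simulated data with known changes. Without a block, the fit of the members called 0 of 49 changes of 2-fold, 14 of 38 of 4-fold and 48 of 50 of 8-fold. The simulation gave every gene the same spread between libraries, which was set beforehand and not estimated from these data. These rates therefore need not hold for the real genes, and large changes can be missed too. Named were the 12 higher and 12 lower genes of smallest p without unnamed models, ribosomal and mitochondrial genes, in each list up to 4 genes of smallest p and 3 of highest mean, the interleukin 1 family genes, the 10 extremes against Pi16/Dpp4-high fibroblasts, and 5 per direction of the difference between cell types. Not every gene so named is described singly, and 1 of the 12 lower genes is not reported here. The heat shock genes, Sod2 and the second copy of Eif3j1 were added after their values were seen. Sequences are from RefSeq.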

Additional observations from a re-analysis of the deposited data

Results flagged for a closer look

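The libraries were aligned to mouse and human genes together, although all cells are of mouse origin. The members held 85 UMIs assigned to human genes, 14 and 32 in the WT libraries and 5 and 34 in the IL1α-/- libraries, which was 0.00321% to 0.00613% of their UMIs. Over whole libraries the share was 0.00522% to 0.00759%. These features enter no comparison.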

How the results depend on the processing

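Alternatives changed 1 choice at a time; keeping only barcodes of at least 2000 UMIs and leaving out or isolating sub-clusters were chosen after seeing the data. The difference in the share of kept barcodes changed sign with collagen genes at 3% or more (0.0601 points), after thinning (0.450) and at 2000 UMIs (0.676), and ran from -0.985 to 0.436 with single libraries left out. The difference in the share of fibroblasts ran from -20.9 to 1.49, the highest without IL1α-/- replicate 1. Genes called in the members numbered 11 with DESeq2, 158 without a count filter, 254 with the pair as a block, and 60 to 198 with single libraries left out, where the lone library is assumed to vary like the other group. They numbered 2 without high doublet scores or without other-lineage UMIs, and 0 with no UMI of Pi16, Dpp4 and Sema3c, after thinning, in sub-cluster 1 alone and without sub-cluster 4. Genes whose host effect differed from the Pi16/Dpp4-high fibroblasts numbered 16 without a filter and 0 to 19 with single libraries left out. Il1a ran from -9.24 to -4.38 with single libraries left out and was -5.79 at 1000 UMIs. Single-gene log2 fold changes that changed sign were Cxcl1 after thinning (-0.16) and Col8a1 (0.24) and Ogn (-0.35) in sub-cluster 1. With single libraries left out, Cxcl12 ran from -0.48 (without IL1α-/- replicate 1) to 3.05, Sparc from -1.55 to 0.0068 (without WT replicate 2), Postn from -0.26 (without IL1α-/- replicate 2, and -0.04 without WT replicate 1) to 0.45, and Cdkn1a from -0.095 (without IL1α-/- replicate 2) to 2.20. Under the alternatives the median of a gene list changed sign in 63 cases and kept it in 276. The cause was not tested. Depth limits IL1α-/- replicate 1 most, with 81599 member UMIs.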
